A study of Vanessa cardui and Junonia coenia with 16 samples.

Results

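In the painted lady butterfly Vanessa cardui, 9 assembly rows were more abundant in forewings of the ommochrome stage than in any of the 6 labelled melanin-stage libraries by a set margin. They were found among 74995 rows of the deposited expression table. Rows were selected on their expression values, given as FPKM, which corrects fragment numbers for the length of the transcript and the size of the library. A row was taken if it held at least 10 FPKM in both ommochrome-stage wings. Its gap also had to be at least 1, the gap being the lower ommochrome-stage value minus the highest melanin-stage value on the log2(FPKM + 1) scale. Rows whose wild-type forewings lay both above or both below all 4 melanin-stage knockout libraries were left out. The rule allowed up to 200 rows, and 9 met it.

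The V. cardui data are 8 RNA-seq libraries, each from dissected wings of animals reared at 27 °C. At the melanin stage there were 2 libraries of wild-type forewings, 2 of optix knockout forewings with large defects and 2 of optix knockout hindwings with large defects. At the ommochrome stage there were 2 forewing libraries from 1 optix knockout individual, 1 wing with large defects and 1 with small defects, called the mosaic wings here. The 2 melanin-stage libraries of a group are labelled biological replicates, while the mosaic wings share an animal and are not replicates of a stage. No wild type of the ommochrome stage was analysed here, so stage, animal and genotype of the mosaic wings cannot be told apart. The share of cells that carry the knockout in each wing is not given in the labels.

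Butterfly wing colour is laid down late in pupal life by scale cells, each of which commits to a main pigment. Ommochromes, the orange to red pigments, are made from tryptophan through the kynurenine pathway and need transporters that bring precursors into the scale cell. Melanins, the dark pigments, are made from tyrosine and generally appear after the ommochromes. The gene optix encodes a homeobox transcription factor known in nymphalid butterflies for promoting ommochrome scales and restraining melanin. Transcripts that are high at the earlier stage and low at the later one can therefore include genes of pigment synthesis, but also any gene of scale growth or cuticle formation.

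The table names its rows only by assembly number, and none of these numbers (0 matches) is found among the 15000 V. cardui genes of the reference. Which gene each row represents, its place in the genome, its sequence, and whether any of the 9 belongs to pigment synthesis are therefore not analysed here. The same holds for optix itself and for markers of other cell types, so the genotype and tissue of each library rest on its label. In bulk tissue, fewer cells of a type and less RNA per cell cannot be told apart.

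Libraries differed in depth, which bears on rows of low value. Relative to the shallowest library, knockout forewing 1, estimated depth was 3.05 and 2.10 in the wild-type forewings, 1.93 in knockout forewing 2, 1.92 and 1.83 in the knockout hindwings, and 2.24 and 1.89 in the small-defect and large-defect mosaic wings. Of the 28 pairs of libraries behind this estimate, 26 lay within 0.1 (log2) of it, and the other 2, both with knockout forewing 1, were off by 0.99 and 1.0. The 10 most abundant rows took 26.5% and 27.6% of total FPKM in the wild-type forewings and 34.6% to 39.4% in the other 6 libraries.

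Few abundant rows stood above every melanin-stage library by the set margin. Of 5453 rows with at least 10 FPKM in both mosaic wings, 473 had a gap above 0 and 12 had a gap of at least 1, which is 0.22% of them. Of those 12, 3 were dropped because wild type was separated from the knockouts, and the remaining 9 are 0.165% of the 5453. Wild type was separated in 2428 of all 5453 rows. These counts follow from the rule and carry no test. The rule gave 21 rows without knockout hindwing 2, 35 without the small-defect and 46 without the large-defect mosaic wing. All 9 rows were among them each time. Without a mosaic wing a gap can only widen or stay, so no row could be lost in those 2 settings.

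**Figure D1:**
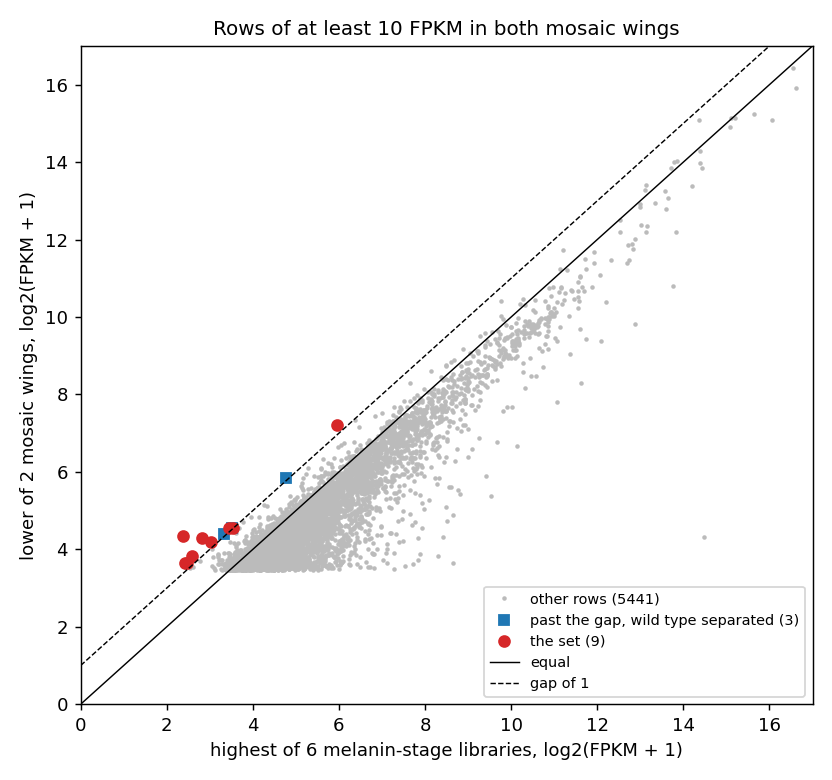
The lower of the 2 mosaic wings is plotted against the highest of the 6 melanin-stage libraries for 5453 rows, both as log2(FPKM + 1). The solid line marks equal values and the dashed line a gap of 1. The 9 rows of the set (red) and the 3 dropped rows (blue) lie above the dashed line, and all but c50153_g1 and 1 dropped row are at the low end of both axes.

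The label under which these rows were grouped calls them independent of genotype. The rule shows less than that. It keeps rows in which the 2 wild-type forewings do not both lie on 1 side of the 4 knockouts at the melanin stage, and it says nothing of wild type at the ommochrome stage. A pair of wild-type values that differ widely from each other is kept for the same reason as a pair that matches the knockouts, and both kinds are in the set.

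The most abundant of the 9 was c50153_g1. The small-defect mosaic wing held 146 FPKM and the large-defect wing 151 FPKM. At the melanin stage the knockout forewings held 58.2 and 53.1 FPKM, the knockout hindwings 61.4 and 58.9 FPKM, and the wild-type forewings 55.8 and 4.18 FPKM. Knockout libraries and wild-type forewing 1 lay close together, at 35.7% to 41.3% of the mosaic mean, while wild-type forewing 2 alone was at 2.81%. The gap was 1.24 (log2), and the lower mosaic wing held 2.38 times the highest melanin-stage value. Its rank among all rows was 594 in the small-defect and 565 in the large-defect wing, whereas the other 8 rows ranked between 2346 and 5635. It is the 1 row of the set that also passed a minimum of 50 FPKM, and its gap was 0.97 after median-of-ratios scaling.

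The widest gap, 1.96, belonged to c26511_g5. This row was at 19.2 FPKM in each mosaic wing. Its melanin-stage values were 4.20 FPKM in wild-type forewing 1 and 0 in wild-type forewing 2. Knockout forewing 1 was listed at 0, knockout forewing 2 held 1.78 FPKM, and the knockout hindwings held 1.74 and 1.73 FPKM. Multiplying FPKM by the estimated depth undoes the correction for library size, so the result does not compare abundance. On that scale knockout hindwing 2 held the lowest value above 0. Knockout forewing 2 and knockout hindwing 1 were at 1.09 and 1.05 times it, and the small-defect and large-defect mosaic wings at 13.6 and 11.5 times. How many fragments that lowest value stands for is not known. Wild-type forewing 1 was the highest melanin-stage library, and against the 4 knockouts alone the gap was 2.86.

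The row c18878_g2 followed with a gap of 1.47. It held 19.9 and 18.7 FPKM in the small-defect and large-defect mosaic wings. The wild-type forewings held 6.11 and 0.591 FPKM, the knockout forewings 3.81 and 2.45 FPKM, and the knockout hindwings 3.48 and 1.75 FPKM. The 4 knockouts again lay between the 2 wild types.

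The row c16223_g1 had the narrowest gap, 1.02, because of 1 library. The small-defect mosaic wing held 22.6 FPKM, the large-defect wing 30.2 FPKM, and wild-type forewing 1 held 10.7 FPKM. All other melanin-stage values were low: wild-type forewing 2 held 0.918 FPKM, the knockout forewings 0.573 and 1.17 FPKM, and the knockout hindwings 1.77 and 2.05 FPKM. Against the knockouts alone its gap of 2.96 was wider than that of any other member, and the mosaic mean was 17.9 times the median of the 6 melanin-stage libraries.

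In 3 further rows the highest melanin-stage value was a knockout forewing. For c52793_g1 the small-defect and large-defect mosaic wings held 16.9 and 11.5 FPKM, the wild-type forewings 4.33 and 1.80 FPKM, the knockout forewings 3.02 and 4.35 FPKM, and the knockout hindwings 4.26 and 1.43 FPKM. For c62682_g1 the mosaic wings held 17.1 and 18.9 FPKM, the wild-type forewings 0.892 and 0.791 FPKM, the knockout forewings 1.45 and 7.21 FPKM, and the knockout hindwings 0 and 3.68 FPKM. For c44610_g1 the mosaic wings held 24.6 and 22.4 FPKM, the wild-type forewings 9.45 and 4.80 FPKM, the knockout forewings 0 and 9.94 FPKM, and the knockout hindwings 9.90 and 0 FPKM. In c52793_g1 the 3 melanin-stage groups overlapped one another, in c62682_g1 both wild types were under 1 FPKM, and in c44610_g1 each knockout pair held 1 library listed at 0.

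The last pair differed in how even they were. For c26892_g4 the mosaic wings held 13.5 and 13.1 FPKM, the wild-type forewings 3.85 and 4.97 FPKM, the knockout forewings 4.84 and 4.88 FPKM, and the knockout hindwings 4.20 and 1.24 FPKM. For c62057_g1 the mosaic wings held 11.9 and 11.6 FPKM, the wild-type forewings 4.17 and 0 FPKM, the knockout forewings 0 and 2.39 FPKM, and the knockout hindwings 2.35 and 4.58 FPKM. For c26892_g4, 5 of the 6 melanin-stage libraries lay between 28.8% and 37.3% of the mosaic mean, and its mean difference between knockout and wild-type forewings was the smallest of the set, at 0.12 (log2). For c62057_g1 the 6 libraries spread from 0 to 39.0% of the mosaic mean.

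**Figure D2:**
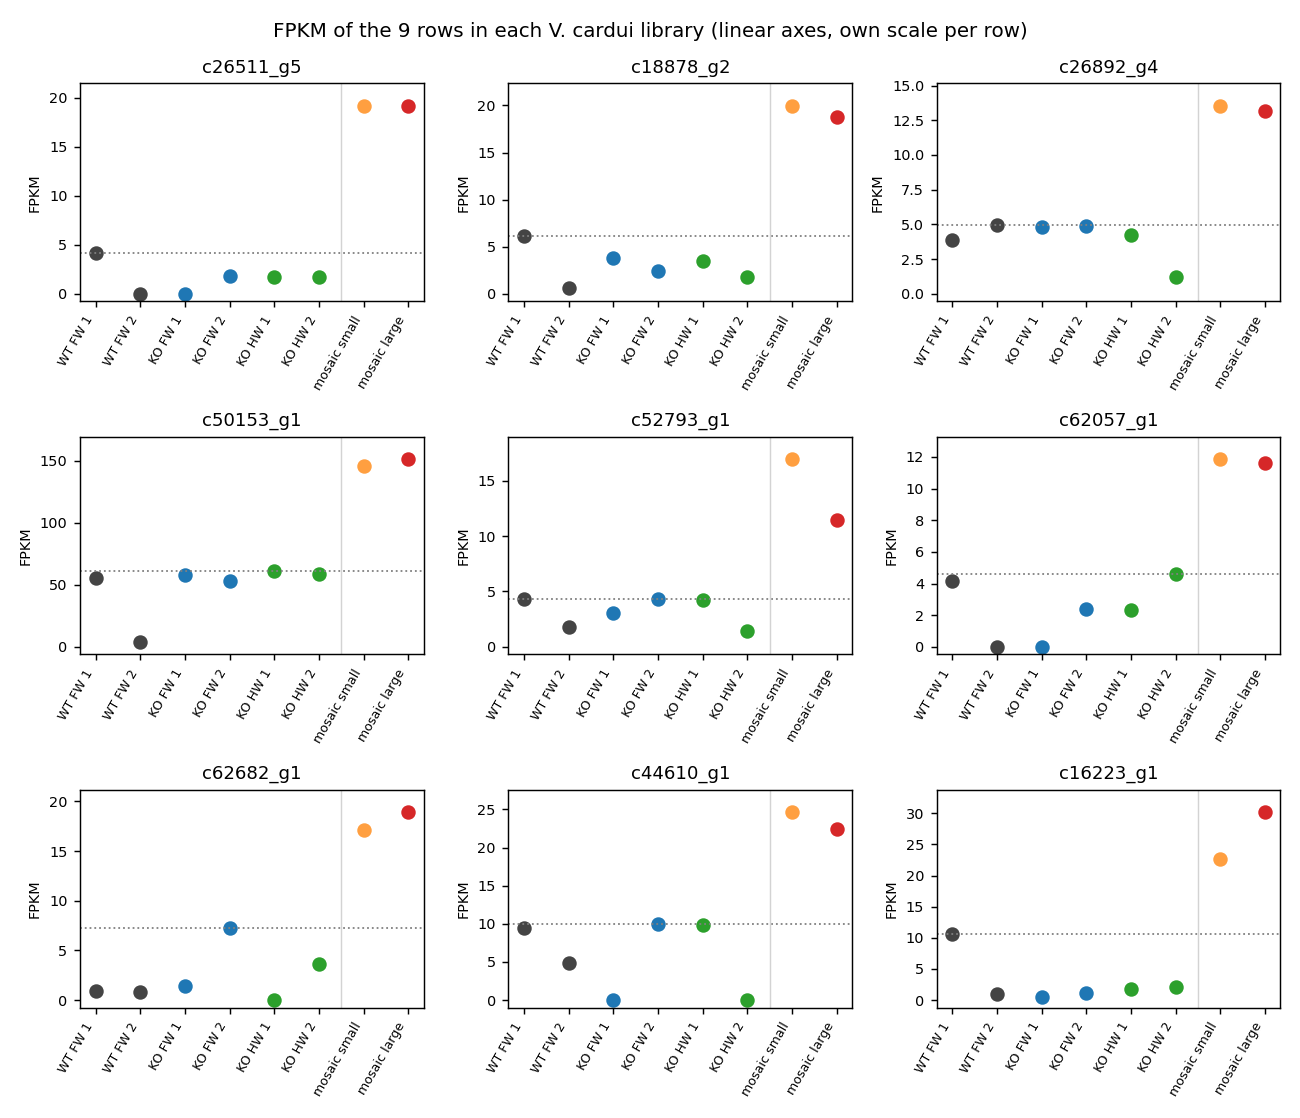
FPKM of each of the 9 rows (1 panel per row, linear axes with their own scale) in the 2 wild-type forewings (WT FW), 2 knockout forewings (KO FW), 2 knockout hindwings (KO HW) and the small-defect and large-defect mosaic wings. Each point is 1 library and the dotted line is the highest melanin-stage value, from 4.20 FPKM for c26511_g5 to 61.4 FPKM for c50153_g1. Both mosaic wings lie above it in every panel, as the rule requires.

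Summed over the 9 rows, the small-defect and large-defect mosaic wings held 292 and 297 FPKM. The melanin-stage libraries held from 18.1 FPKM in wild-type forewing 2 to 99.5 FPKM in wild-type forewing 1. Without c50153_g1 the sums were 146 FPKM in each mosaic wing and 13.7 to 43.6 FPKM at the melanin stage. The set made up 0.0257% and 0.0248% of total FPKM in the small-defect and large-defect mosaic wings. No member was listed at 0 in all 6 melanin-stage libraries. Of 7 values listed at 0, 3 were in knockout forewing 1, the shallowest library, 2 in wild-type forewing 2 and 1 in each knockout hindwing, and the part of depth in these zeros was not tested. A value of 0 in knockout forewing 1 was found in 1.27% of the 5453 rows of at least 10 FPKM in both mosaic wings. The rule required melanin-stage values of the members to be low against the mosaic wings, which by itself favours zeros. Nothing is therefore read from this share.

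**Figure D3:**
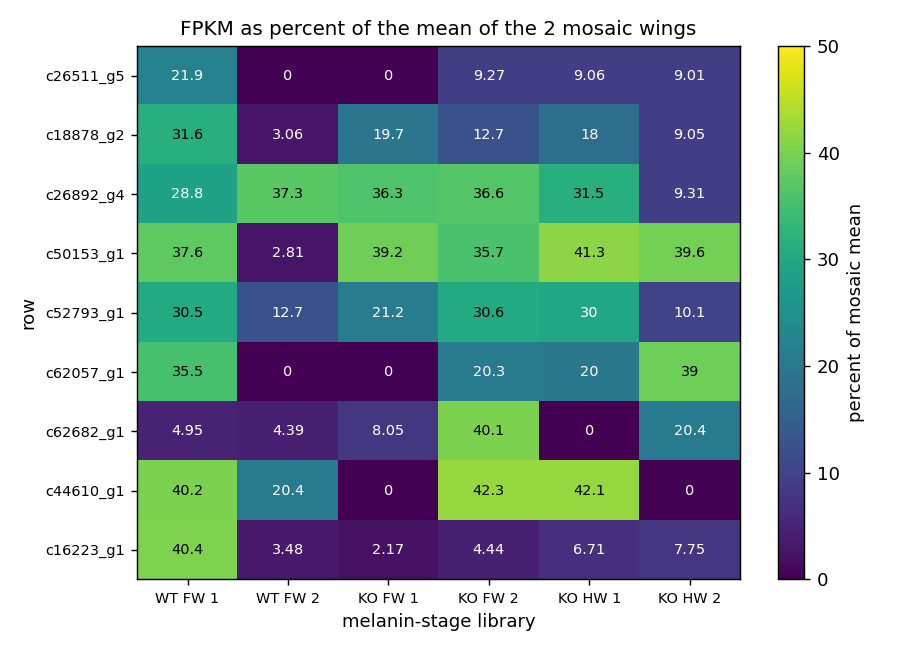
FPKM of the 9 rows in each melanin-stage library as a percentage of the mean of the 2 mosaic wings (rows against libraries, colour and printed number give the percentage). Values run from 0 to 42.3%, and the wild-type forewing 2 column is low for c62057_g1 (0%), c50153_g1 (2.81%), c18878_g2 (3.06%) and c16223_g1 (3.48%), where the wild-type forewing 1 column is at 31.6% or more, and for c26511_g5 (0%), where it is at 21.9%.

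The wild-type forewings differed from each other in these rows. Wild-type forewing 1 was higher than wild-type forewing 2 in 8 of 9 rows, and c26892_g4 was the exception. The median difference, replicate 1 minus replicate 2, was 2.16 on the log2(FPKM + 1) scale, with a range of -0.30 to 3.46. Over the 3025 rows of at least 10 FPKM in both mosaic wings whose wild types were not separated, the median was -0.07, and forewing 1 was the higher in 46% of them. The rule used these values, since a row with a wide wild-type pair is harder to separate from the knockouts, so the difference is given as a description only. Wild-type forewing 1 was also the deepest library and wild-type forewing 2 the second deepest of the melanin stage.

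The knockout and wild-type forewings of the melanin stage were compared with limma over the 19184 rows that averaged 1 FPKM or more, all 9 members among them. Overall 82 rows were called at an adjusted p of 0.05, which is 0.427%, and 0 of the 9 members were. The 82 calls became 573 without wild-type forewing 1, 502 without wild-type forewing 2 and 0 without any other library. Without adjustment, 4527 rows (23.6%) and again 0 members had a p under 0.05. The rule used these libraries, dropping rows whose wild-type forewings lay on 1 side of all 4 knockouts, so nothing is read from these counts. Both wild-type forewings of c62682_g1 were below both knockout forewings, and the row was kept because knockout hindwing 1 was listed at 0.

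The largest differences of the members in this contrast show how far 1 library sets them. The row c50153_g1 had a log2 change of 1.72 (knockout minus wild type, SE 1.08, adjusted p = 0.397, limma). Without wild-type forewing 1 it was 3.45 (adjusted p = 0.00598, limma), and without wild-type forewing 2 it was -0.0063 (adjusted p = 0.995, limma). Each of these fits leaves 1 wild-type library, which is assumed to vary like the other groups, and the rule used the same libraries, so the values are a description. The row c62682_g1 was at 1.29 (SE 0.93, adjusted p = 0.447, limma), and at 0.41 and 2.16 without knockout forewing 2 and 1. On the lower side c16223_g1 was at -1.35 (SE 0.87, adjusted p = 0.407, limma), and at -0.05 and -2.66 without wild-type forewing 1 and 2. The row c44610_g1 was at -1.24 (SE 1.54, adjusted p = 0.661, limma) and turned to 0.49 without knockout forewing 1 and reached -2.96 without knockout forewing 2.

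Knockout hindwings and knockout forewings of the melanin stage were compared to see whether the rows differed between the wings. The contrast itself was not a step of the rule. Its 4 libraries were used, however, in the ceiling and in the step that dropped rows with separated wild types. The row c62682_g1, at -1.05 in this contrast, was kept only because knockout hindwing 1 was listed at 0. No member was called, with 0 of 9 at an adjusted p of 0.05 and 0 of 9 at an unadjusted p under 0.05 (limma, smallest adjusted p = 0.774). Over all 19184 rows 0 were called (0%) and 1235 had an unadjusted p under 0.05 (6.44%). The median change of the members was -0.0022 (log2, hindwing minus forewing) and their range -1.05 to 1.23, against a median of -0.10 over all rows. These data do not show that the rows were equal in both wings, since the standard errors ran from 0.47 to 1.54. Their spread was pooled over all 3 groups, so the wild-type forewing pair enters it, at 55.8 and 4.18 FPKM for c50153_g1. Fitted on the 2 compared groups only, again 0 of 9 members had an unadjusted p under 0.05 (limma, smallest adjusted p = 0.761).

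Hindwing and forewing values did not overlap in 3 of the 9 rows, against 35.9% of all rows tested (14.4% with the hindwing higher and 21.4% with it lower). Both knockout hindwings were above both knockout forewings for c16223_g1 (log2 change 0.65, SE 0.87, adjusted p = 0.848, limma) and for c50153_g1 (0.11, SE 1.08, adjusted p = 1.0, limma). They were below for c26892_g4 (-0.78, SE 0.47, adjusted p = 0.774, limma), where knockout hindwing 2 was the low library. That change was -0.17 without knockout hindwing 2 (adjusted p = 1.0, limma) and -1.39 without knockout hindwing 1 (adjusted p = 0.319, limma). The largest change of all, 1.23 in c62057_g1, came with overlapping groups.

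The mosaic wings differ in how much of the wing shows the knockout phenotype, so the comparison between them asks whether the rows follow the size of the defects. With 1 library per wing it has no replicate check. The median difference was -0.03 (log2, large-defect minus small-defect), beside -0.01 over the 5453 rows of at least 10 FPKM in both. The large-defect wing was lower in 6 of 9 rows, against 51.1% of the 5453. It was lower in 2 of 9 after median-of-ratios scaling and 3 of 9 after quantile normalization. The median over the 5453 rows moved with these settings too, to 0.10 and 0.05, beside 0.08 and 0.07 for the members. No member differed by 1 or more (log2), which 2.37% of the 5453 rows did. The rule used these 2 values, taking the lower for the gap, which by itself disfavours rows low in 1 wing. Nothing on the size of the defects is read from these counts.

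Among the members, c16223_g1 was highest relative to the small-defect wing, by 0.40, followed by c62682_g1 at 0.14. The row c52793_g1 was the lowest, at -0.53, followed by c44610_g1 at -0.13. The row c26511_g5, with the widest gap, differed by less than 0.01 between the wings, at 19.18 and 19.16 FPKM.

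**Figure D4:**
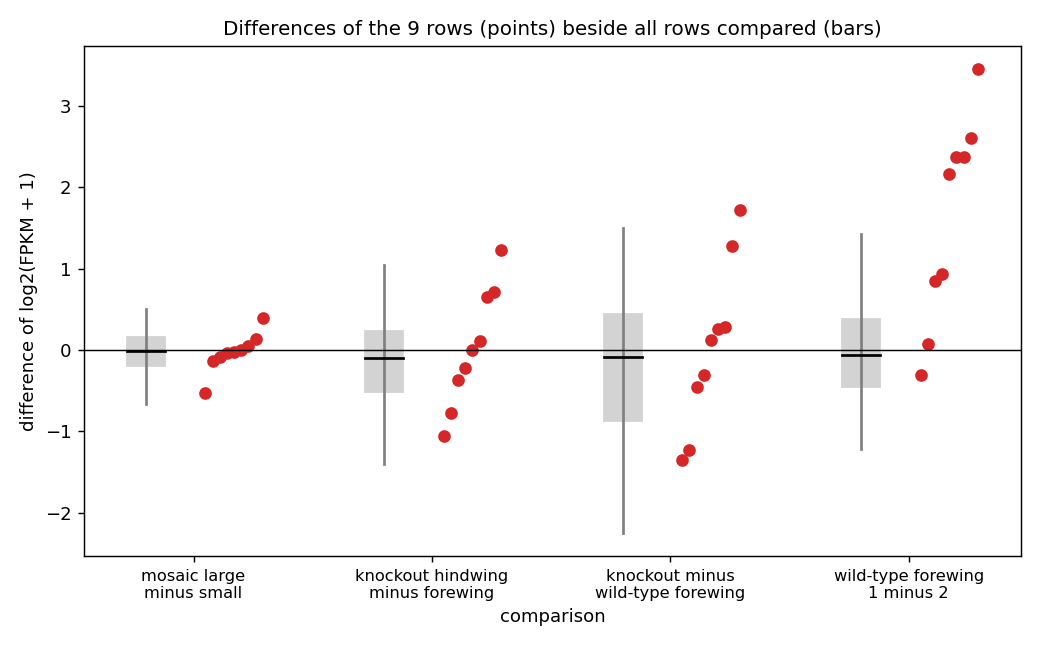
Differences of log2(FPKM + 1) for the 9 rows (red points, sorted) in 4 comparisons, beside all rows compared (black line, median; grey box, central quartiles; grey line, 5th to 95th percentile). The rows are near 0 between the mosaic wings, from -0.53 to 0.40, lie on both sides of 0 in the hindwing and knockout comparisons, and in 8 of 9 cases are above 0 between the wild-type forewings.

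Rows of an assembly component, which share the number after the c in the identifier, can be pieces or variants of 1 gene. The 9 rows come from 9 components, and 6 of them are the only row of theirs. The row c18878_g2 has 1 companion, c18878_g1, with 11.9 and 8.98 FPKM in the mosaic wings and at most 5.58 FPKM at the melanin stage, a gap of 0.60. The sum over that component had a gap of 1.18. The row c26511_g5 has 4 companions, and the component sum had a gap of 0.40, with 50.6 and 55.2 FPKM in the mosaic wings and up to 38.2 FPKM at the melanin stage. The row c26892_g4 shares its component with the abundant c26892_g1, whose mosaic wings held 654 and 531 FPKM and whose wild-type forewings held 1186 and 2628 FPKM, and the component sum had a gap of -2.21. Of the 9 rows, 7 thus kept a gap of at least 1 at the level of components, but 6 of these are alone in theirs and could not change.

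At the edge of the rule, the last row inside was c16223_g1 with a gap of 1.02, and the next row outside was c18482_g1 with 0.99. The latter held 10.9 and 10.4 FPKM in the mosaic wings and at most 4.78 FPKM at the melanin stage. A further 32 rows with unseparated wild types, c18482_g1 among them, had gaps from 0.5 to under 1. The 3 rows dropped for separated wild types were c25016_g2, c58734_g1 and c24399_g6, named here after their values were seen. In all 3 the wild-type forewings were below the knockouts. For c25016_g2 the mosaic wings held 56.8 and 67.8 FPKM, the 4 knockouts 16.2 to 26.5 FPKM, and the wild types 1.51 and 0.791 FPKM. For c58734_g1 the mosaic wings held 20.8 and 20.2 FPKM, and both wild types were listed at 0. For c24399_g6 the mosaic wings held 24.6 and 22.6 FPKM, the 4 knockouts 6.10 to 10.5 FPKM, and the wild types 0.526 and 4.13 FPKM.

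The rule can be taken apart by genotype. Against the 4 melanin-stage knockouts alone, 40 of the 5453 rows (0.734%) had a gap of at least 1, and against the 2 wild-type forewings alone 278 rows (5.1%) did. The 12 rows that pass both are 30% of the former and 4.32% of the latter, and since both use the same mosaic wings this overlap is no independent result. Of the 40 rows, the wild-type forewings were both above all knockouts in 14, both below in 3 and mixed in 23. Over the 5453 rows they were both above in 834, both below in 1594 and mixed in 3025. Low knockout values were required of the 40 rows, which by itself favours wild type above, so nothing is read from these counts. In 11 of the 40 rows a wild-type forewing reached or passed the lower mosaic wing. Of the 278 rows, wild type was below all 4 knockouts in 203, against 1594 of the 5453. Low wild-type values were required of the 278 rows, which by itself favours wild type below, so nothing is read from this count either. The 40 rows became 95 without knockout forewing 2, 75 without knockout hindwing 2, 90 without the small-defect and 188 without the large-defect mosaic wing. The 12 rows became 25 without wild-type forewing 1, 25 without knockout hindwing 2, 40 without the small-defect and 53 without the large-defect mosaic wing. Leaving out a library can only widen or keep a gap, so neither count could fall.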

How the data were processed

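The authors deposited FPKM values, 1 per assembly row and library. Bowtie2 is named in the submitters' processing notes. Its version, the program that quantified the rows and whether libraries were rescaled are not stated in the labels or file headers. FPKM holds no read counts, so depth per row is unknown, a few abundant rows shift all others, and a 0 can be a failed estimate. Per the labels' protocols, poly(A) RNA was amplified with 15 PCR cycles and read as paired ends of 36 bp. Of the columns, 2 match no labelled sample and were not used, nor was the Junonia coenia table, whose rows cannot be matched.

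The 9 rows, the lists and the comparisons were chosen with earlier results of these data known. Relative depth was estimated from ratios of values under 0.6 FPKM, fitted jointly over all pairs of libraries. Values were tested as log2(FPKM + 1) with limma 3.58.1 (R 4.3.3). The model held the 3 melanin-stage groups and a trend of variance with mean. Tested were the 19184 rows whose mean was 1 FPKM or more, with two-sided p-values and Benjamini-Hochberg adjustment, called at 0.05. The test was run on simulated data first. The added 1 makes changes of low rows look smaller. The p-values measure a spread pooled over the 2 libraries of each of the 3 groups and moderated across rows. The wild-type forewing pair therefore also enters the comparison of knockout hindwings and forewings.

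Rows were named by a rule: the 2 widest gaps, the 2 highest levels in the mosaic wings and at the melanin stage, the largest differences per comparison (at most 2 in each direction, for hindwing against forewing among rows whose groups did not overlap), the components with most members and the rows at the edge. The row c62057_g1 falls outside it and is given to account for all 9. The alternatives were another pseudocount, other filters, median-of-ratios scaling, quantile normalization, a replicate block, a fit restricted to the compared groups, component sums and leaving out each library.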

Additional observations from a re-analysis of the deposited data

How the results depend on the processing

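The hindwing against forewing comparison called 0 rows under all 15 alternatives by limma, with 657 to 2351 rows at an unadjusted p under 0.05. The unadjusted p of 1 member was under 0.05 in 1 of them: c26892_g4 without knockout hindwing 1. The knockout against wild-type forewing comparison called 82 rows, but 1 with a pseudocount of 0.1, without the filter, with a mean of at least 5 FPKM or on component sums, 0 with only the 2 compared groups (limma, 4701 at an unadjusted p under 0.05), and 0 to 573 when 1 library was left out (2699 to 4908 unadjusted), with 573 without wild-type forewing 1, 502 without wild-type forewing 2 and 0 without any other. Differences between replicates 1 and 2 showed little correlation between groups (r of -0.10 to 0.02, and -0.10 for knockout forewings with hindwings). These values do not settle whether knockout forewings and hindwings came from the same animals. The replicate block called 0 rows between knockout and wild-type forewings (4010 unadjusted) and 0 between the wings. With the hindwing numbers crossed, chosen after seeing the data, it called 1 row there and 0 between the wings.

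The rule gave 9 rows, and 90 without a minimum of 10 FPKM, 1 with a minimum of 50 FPKM, and 8 to 46 when 1 library was left out, the highest without the large-defect and the next, 35, without the small-defect mosaic wing. Without knockout hindwing 2 it gave 21, all 9 members included. Median-of-ratios scaling kept 6 of the 9 members and quantile normalization 8. Leaving out either wild-type forewing kept 6, and the rows lost there still had gaps of at least 1. Leaving out a library can only widen or keep a gap. Members were lost in those settings only where the remaining wild types became separated from the knockouts. Rows with a gap of at least 1 over knockouts and wild types numbered 12, but 7 after median-of-ratios scaling, 2 with a minimum of 50 FPKM, and 12 to 53 when 1 library was left out, with 25 without wild-type forewing 1, 25 without knockout hindwing 2, 40 without the small-defect and 53 without the large-defect mosaic wing. The difference of c50153_g1 between knockout and wild-type forewings ran from -0.0063 (without wild-type forewing 2) to 3.45 (without wild-type forewing 1), and that of c44610_g1 from -2.96 (without knockout forewing 2) to 0.49 (without knockout forewing 1). The causes were not tested.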

Other observations

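Among rows with gaps from 0.5 to under 1 and unseparated wild types, 1 was among the most abundant transcripts of the wing, and it was singled out after its values were seen. The row c26824_g1 was at 34907 and 37344 FPKM in the mosaic wings, 3.08% of total FPKM in the small-defect wing. At the melanin stage the wild-type forewings held 19119 and 13200 FPKM, the knockout forewings 18821 and 20949 FPKM, and the knockout hindwings 15622 and 16686 FPKM. The wild types overlapped with both knockout groups, and the gap was 0.74.

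The number of fragments behind a row is unknown. FPKM was multiplied by the estimated depth, which undoes the correction for library size, so the multiples below do not compare abundance. On that scale c44610_g1 in the small-defect and large-defect mosaic wings was 5.46 and 4.20 times its lowest value above 0. For c62057_g1 the multiples were 5.88 and 4.88. How many fragments the lowest value stands for is not known from FPKM. For c16223_g1 the same multiples were 88.3 and 99.6.

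In the opposite direction, 9 of 3588 rows with at least 10 FPKM in all 6 melanin-stage libraries were lower by at least 1 (log2) in both mosaic wings, and in 8 of these the wild types were not separated. A gap of at least 1 was also found in 83 rows under 10 FPKM in a mosaic wing.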
